A study of Homo sapiens with 40 samples.

Results

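Lateral plate and cardiac mesoderm genes were followed in human embryonic stem cells labelled as knockouts of the histone demethylase UTX, of its Y-linked paralog UTY, or of both. The set has 9 genes of 60651 in the count tables. Listed by name as lateral plate and cardiac genes, they were chosen with earlier results of these data known. They are the transcription factor genes HAND1, HAND2, FOXF1, TBX5, TBX20, NKX2-5 and ISL1, the myosin gene MYH6 and the matrix gene HAPLN1. All 9 are listed in the count tables, 8 in the germ layer tables (HAND2 was not analysed there) and 5 in the H9 table (FOXF1, TBX5, NKX2-5, ISL1 and HAPLN1).

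The libraries come from polyA RNA of 2 established lines, SEES3 and H9. Undifferentiated SEES3 cells were wild type (WT), UTXKO or DKO (UTX and UTY both knocked out), and UTYKO cells had their own wild-type control (UTYKO control). SEES3 cultures named by their titles as endoderm (Endo), mesoderm (Meso) or ectoderm (Ecto) were each WT, XKO (UTX knockout), YKO (UTY knockout) or DKO, and a second line, H9, was sampled as WT and as UTXKO in sets that the labels number 3 and 4. Each of the 20 groups has 2 libraries, and the labels do not say whether those are separate cultures or clones, how the cells were differentiated or for how long. The p-values therefore measure the spread between these libraries, which may be technical. Library totals in the count tables ran from 5781357 to 14973722, and the TPM tables give no depth. The RNA of the targeted genes does not check the labels: KDM6A, which encodes UTX, changed by 0.09 ± 0.10 (log2 fold change ± SE; edgeR adjusted p = 0.617) in undifferentiated UTXKO and by -0.24 ± 0.08 in DKO (0.0137), and UTY was higher, by 0.91 ± 0.20 in UTYKO (0.0392) and 0.65 ± 0.09 in DKO (3.1e-06). In Meso DKO neither passed the threshold (limma, KDM6A 0.73 ± 0.42, adjusted p = 0.316, and UTY 1.01 ± 0.40, 0.16). The part deleted is not given in the sources used here.

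Lateral plate mesoderm is the sheet of mesoderm farthest from the midline of the early embryo, and it gives rise to the heart, the limb buds and the smooth muscle of the gut. BMP signalling from neighbouring tissue induces it, and the GATA, HAND, T-box and NK2 families of transcription factors then act together in heart progenitors to turn on the genes of the contractile apparatus. HAND1 marks its extraembryonic and left ventricular derivatives, FOXF1 the splanchnic layer, ISL1 progenitors that add to the heart tube late, and TBX5 the first heart field and the forelimb.

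Promoter sequence from RefSeq (GRCh38.p14) was matched for 7 of the 9 members. The windows of 3 members with called changes are shown, HAND1 and MYH6 from the mesoderm cultures and TBX5 from undifferentiated cells. That of HAPLN1, which has called changes in both, lies inside its GENCODE gene and is not printed. Each runs 5′ to 3′ on the gene's own strand and ends at the base before the GENCODE v29 gene. TBX5 has 2 entries, and the one outside the gene is shown. Capitals mark GATAA on either strand (TTATC is the same motif on the opposite strand), the core bound by GATA factors, or TATAAA, the TATA box.
HAND1, minus strand, chr5:154478265-154478477: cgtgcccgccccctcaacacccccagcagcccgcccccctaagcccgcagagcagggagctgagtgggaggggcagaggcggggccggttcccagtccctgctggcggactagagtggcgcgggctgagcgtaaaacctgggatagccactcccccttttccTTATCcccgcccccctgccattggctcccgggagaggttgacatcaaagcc
MYH6, minus strand, chr14:23408278-23408523: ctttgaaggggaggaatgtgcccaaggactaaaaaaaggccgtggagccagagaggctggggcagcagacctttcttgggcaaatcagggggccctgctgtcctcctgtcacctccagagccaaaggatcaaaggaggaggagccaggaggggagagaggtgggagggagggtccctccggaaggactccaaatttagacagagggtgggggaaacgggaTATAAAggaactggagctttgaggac
TBX5, minus strand, chr12:114408443-114408692: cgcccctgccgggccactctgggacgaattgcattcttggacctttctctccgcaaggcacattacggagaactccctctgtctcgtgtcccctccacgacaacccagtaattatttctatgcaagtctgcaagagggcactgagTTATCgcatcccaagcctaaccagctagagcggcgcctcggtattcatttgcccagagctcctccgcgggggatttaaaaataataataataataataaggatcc

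In the 250 bases before the RefSeq start, HAND1 held 16 CpG dinucleotides, the TBX5 entry shown 13 and MYH6 3, where the median over 35116 promoters was 11. GATAA or its complement occurred in 20.4% of all promoters, TATAAA in 10.7% and TCACAC, the core bound by T-box factors, in 9.9%, each searched on both strands. The HAND1 and TBX5 windows each held 1 GATAA and the MYH6 window 1 TATAAA, and these 3 held no TCACAC, while the HAPLN1 window held 2 TCACAC and 5 CpG. These are matches of letters and not measured sites.

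The mesoderm cultures were the only ones of the 3 layers in which HAND1, FOXF1 and MYH6 were clearly present in wild-type cells. HAND1 (chr5:154474972-154478264, minus strand), a basic helix-loop-helix factor, was at 369 and 326 TPM (transcripts per 1000000 transcripts, a level scaled for gene length) in the Meso WT libraries and ranked 487 of 16742 genes. FOXF1 (chr16:86510527-86515418, plus strand), a forkhead factor of splanchnic mesoderm, was at 171 and 195 TPM, and HAPLN1 (chr5:83637805-83721613, minus strand), which links hyaluronan to proteoglycans in cardiac jelly, at 233 and 257 TPM. MYH6 (chr14:23381990-23408277, minus strand), the alpha myosin heavy chain of heart muscle, was lower, at 25.3 and 19.8 TPM. In Endo WT and Ecto WT, HAND1, FOXF1 and MYH6 were listed at 0 in every library. The layer tables were normalised separately, so levels are set side by side across layers without a test.

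The wild-type mesoderm cultures held markers of early mesoderm. MIXL1 was at 2730 and 2530 TPM and TBXT, the brachyury gene, at 454 and 481 TPM. Markers of working heart muscle were low: of 18 contractile genes 10 are in the layer tables, and their summed level in Meso WT was 42.1 to 49.9 TPM, with NPPB, TNNI1 and MYL3 listed at 0. The members with later cardiac roles were near their lower limit too. TBX20, a T-box factor of the heart chambers, was listed at 0 in all 8 mesoderm libraries. NKX2-5, the NK2 homeobox factor of heart progenitors, was at 0 and 3.71 TPM in Meso WT, ISL1 at 2.42 and 4.05, and TBX5 at 1.54 and 3.42. HAND1 and FOXF1 were thus high in these cultures, while the later cardiac factors were at a few TPM or less.

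In the mesoderm cultures labelled DKO, 4 of the 7 members tested fell against WT and 0 rose, where 3.70% of the 15125 genes tested fell and 10.1% were called in either direction (limma on log2(TPM + 1), Benjamini-Hochberg adjusted p under 0.05). TBX20 and HAND2 were not tested. The 4 were HAND1, FOXF1, HAPLN1 and MYH6, the members with the highest levels in WT. As the members were chosen with earlier results known, the shares over all genes are given for scale and are no test of the set. In bulk RNA, fewer cells of a type and less RNA per cell cannot be told apart.

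HAND1 was at 115 and 97.9 TPM in Meso DKO, against 369 and 326 in WT, 216 and 278 in XKO and 196 and 173 in YKO. All 4 DKO and YKO libraries lay below all 4 WT and XKO libraries, and both DKO libraries below both of YKO. The fall from WT to DKO was -1.70 ± 0.18 (log2 difference ± SE, n = 2 against 2; limma adjusted p = 0.00208), a level 3.26-fold lower on the TPM + 1 scale.

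FOXF1 was at 17.2 and 18.6 TPM in Meso DKO, against 171 and 195 in WT, 157 and 119 in XKO and 135 and 74.7 in YKO. The DKO libraries stood apart from the other 6, whose lowest value was a YKO library. The difference from WT was -3.28 ± 0.29 (limma adjusted p = 0.00128), 9.72-fold on the TPM + 1 scale. FENDRR, a long noncoding RNA transcribed away from FOXF1 on the other strand and 1428 bases from it, was at 3.15 and 0.864 TPM in DKO and 43.7 and 40.9 in WT (-3.96 ± 0.48, limma adjusted p = 0.0033).

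HAPLN1 was at 8.39 and 7.67 TPM in Meso DKO, against 233 and 257 in WT, 282 and 250 in XKO and 159 and 106 in YKO. The DKO libraries lay far below the other 6, and YKO below WT and XKO. The difference between DKO and WT was -4.77 ± 0.22 (limma adjusted p = 0.000203), or 27.3-fold on the TPM + 1 scale. The matrix genes that work with HAPLN1 did not pass the threshold. VCAN, which encodes the versican that HAPLN1 binds and lies 55502 bases away, was at 245 and 254 TPM in DKO and 126 and 141 in WT (0.89 ± 0.35, limma adjusted p = 0.149). HAS2, the hyaluronan synthase gene of the heart, was at 76.6 and 60.3 TPM in DKO and 86.9 and 105 in WT (-0.48 ± 0.26, limma adjusted p = 0.288).

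MYH6 was listed at 0 in both Meso DKO libraries. It was at 25.3 and 19.8 TPM in WT, 26.2 and 23.5 in XKO and 42.2 and 25.8 in YKO, so the 6 libraries with at least 1 paralog did not overlap with DKO. The difference on the log2(TPM + 1) scale was -4.55 ± 0.38 (limma adjusted p = 0.00103). No fold is given against a value of 0. Every layer library lists at 0 some genes that average over 50 TPM in the other genotypes of its layer (1 to 15 genes). Such a 0 can be a failed estimate or a gene that is off in that genotype, and these were not told apart. MYH7, the near-identical beta myosin gene 4461 bases away, was not analysed in the layer tables, and the split of reads between the pair is uncertain.

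The remaining 3 members tested did not pass the threshold in Meso DKO against WT. ISL1, a LIM homeobox factor, was listed at 0 in both DKO libraries (limma adjusted p = 0.119), and so was NKX2-5 (adjusted p = 0.377). TBX5 was at 2.92 and 2.68 TPM in DKO, within the range of WT (0.18 ± 0.57, adjusted p = 0.874).

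**Figure D1:**
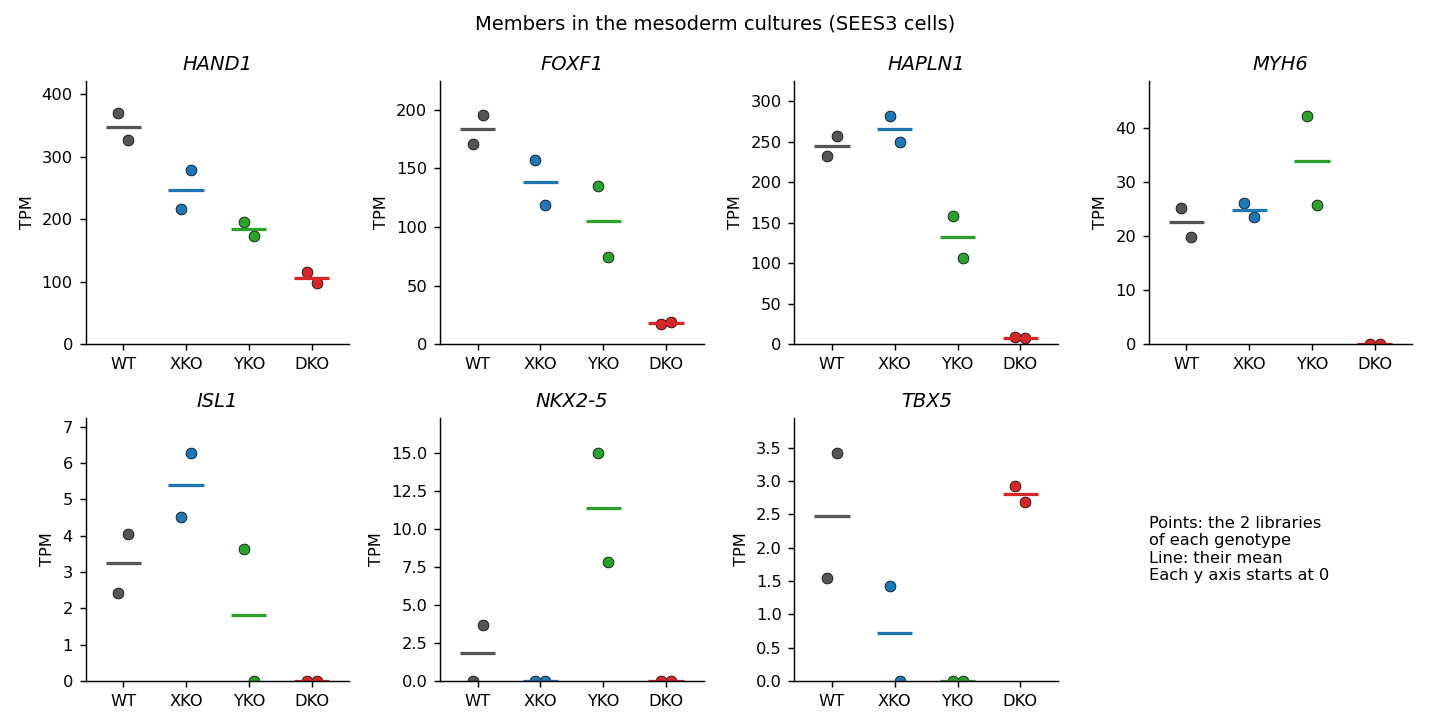
TPM (y axes, each from 0) of the 7 members measured in the mesoderm cultures, by genotype (x axis); each point is 1 of the 2 libraries and each line their mean. HAND1, FOXF1, HAPLN1 and MYH6 are lowest in DKO, with MYH6 at 0 in both libraries, while ISL1, NKX2-5 and TBX5 stay at or under 15 TPM in all genotypes.

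The falls of the 4 members held under each alternative that was run. Over these the adjusted p ran from 0.00151 to 0.0316 for HAND1, 0.000132 to 0.0214 for FOXF1, 1.24e-05 to 0.00799 for HAPLN1 and 0.000243 to 0.0214 for MYH6. The median gene was higher in DKO than in WT by 0.21 on the log2 scale, and centring each library on its median, chosen after seeing the data, moved that median to -0.11. With that centring 37.3% of all called genes rose, against 63.2% without it, and the 4 members fell by 2.03 (HAND1), 3.61 (FOXF1), 5.09 (HAPLN1) and 4.87 (MYH6).

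Loss of UTX or UTY alone left no member past the threshold in the mesoderm cultures. The fits had little power for small changes: in simulated data for Meso DKO against WT, 29% of 2-fold changes were recovered. A missing call is therefore not read as no change. In XKO, limma called 0 of 7 (1 at an unadjusted p under 0.05) where 0.0397% of all genes were called. In YKO it called 0 of 7 (5 at an unadjusted p under 0.05, NKX2-5 among them) where 0.0132% were. For XKO the difference from WT was -0.50 ± 0.18 for HAND1 (adjusted p = 0.414), -0.42 ± 0.29 for FOXF1 (0.596), 0.12 ± 0.22 for HAPLN1 (0.858) and 0.14 ± 0.38 for MYH6 (0.918). For YKO it was -0.91 ± 0.18 for HAND1 (adjusted p = 0.0992), -0.85 ± 0.29 for FOXF1 (0.14), -0.91 ± 0.22 for HAPLN1 (0.104) and 0.54 ± 0.38 for MYH6 (0.419). The YKO values rest on its first library: without it limma called HAPLN1 (-1.21, adjusted p = 0.0156), FOXF1 (-1.28, 0.0193) and HAND1 (adjusted p = 0.025), among 2831 genes called in all. NKX2-5 was highest in YKO, at 15 and 7.86 TPM against 0 and 3.71 in WT. It passed the filter on low values only through the YKO libraries, so its p is not read as a change.

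Against the single knockouts, HAND1, FOXF1, HAPLN1 and MYH6 were also lower in the double knockout. Compared with XKO, 5 of 7 members fell, where 6.39% of all genes fell and 22.6% were called, namely HAPLN1 (-4.88 ± 0.22, adjusted p = 0.000142), MYH6 (-4.69 ± 0.38, 0.00074), FOXF1 (-2.87 ± 0.29, 0.00175), HAND1 (-1.20 ± 0.18, 0.0058) and ISL1 (-2.66 ± 0.72, 0.0365). Compared with YKO, HAND1, FOXF1, HAPLN1 and MYH6 fell and TBX5 rose, where 7.95% of all genes fell, 25.8% rose and 33.8% were called. HAPLN1 differed by -3.86 ± 0.22 (adjusted p = 0.000289), MYH6 by -5.09 ± 0.38 (0.00071), FOXF1 by -2.43 ± 0.29 (0.00246) and HAND1 by -0.79 ± 0.18 (0.0154). TBX5 rose by 1.93 ± 0.57 (adjusted p = 0.0349), from a listed 0 in both YKO libraries. NKX2-5 was at 15 and 7.86 TPM in YKO and listed at 0 in DKO. It passed the filter on low values (TPM of at least 1 in 2 libraries) only through YKO, so this difference is given with no test. These comparisons share the DKO libraries with that against WT. Without either DKO library the call of HAND1 against YKO was lost. TBX5 against YKO was lost without any 1 of the 4 libraries (0.0798 to 0.154) and with median centring (1.19, 0.153). ISL1 against XKO was lost without any 1 of the 4 (0.0851 to 0.153) and with a pseudocount of 0.1 (0.0524), and HAND1 against XKO without the second DKO library (0.0571).

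Among other regulators of the lateral plate and heart, falls were more numerous than rises in Meso DKO. Of 26 listed genes 20 were tested, 6 fell and 2 rose, where 3.70% of all genes fell and 10.1% were called. Their median was -1.10, against 0.21 over all genes tested. This list too was chosen with earlier results known, so these shares are no test of it. TBX3, a T-box factor of the conduction system that neighbours TBX5 on chromosome 12, was at 13.8 and 13 TPM in DKO and 155 and 158 in WT (-3.45 ± 0.18, limma adjusted p = 0.000223). GATA4, a zinc finger partner of NKX2-5 and TBX5, was at 6.82 and 17.4 TPM in DKO and 99.9 and 83.9 in WT (-2.95 ± 0.40, adjusted p = 0.00503). MESP1, the earliest marker of cardiac progenitors, was listed at 0 in DKO and was at 11.5 and 9.63 TPM in WT (adjusted p = 0.00821). GATA5, TBX1 and TBX4 also fell, by 2.45, 2.67 and 4.81 on the log2 scale.

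The 2 regulators that rose were NR2F2, an orphan nuclear receptor of the atria and veins, which was listed at 0 in WT and was at 11.4 and 15.6 TPM in DKO, and FOXF2, the paralog of FOXF1, at 54.8 and 48.5 TPM in DKO against 2.78 and 10.9 in WT (2.97 ± 0.71, adjusted p = 0.039). FOXF1 and FOXF2 thus changed in opposite directions. The counts of this list rest on single libraries: 4 fell and 0 rose without either DKO library, 1 fell and 1 rose without the first WT library, and 5 fell and 1 rose without the second. TBX3 was called in each of these fits and FOXF2 in none of them.

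**Figure D2:**
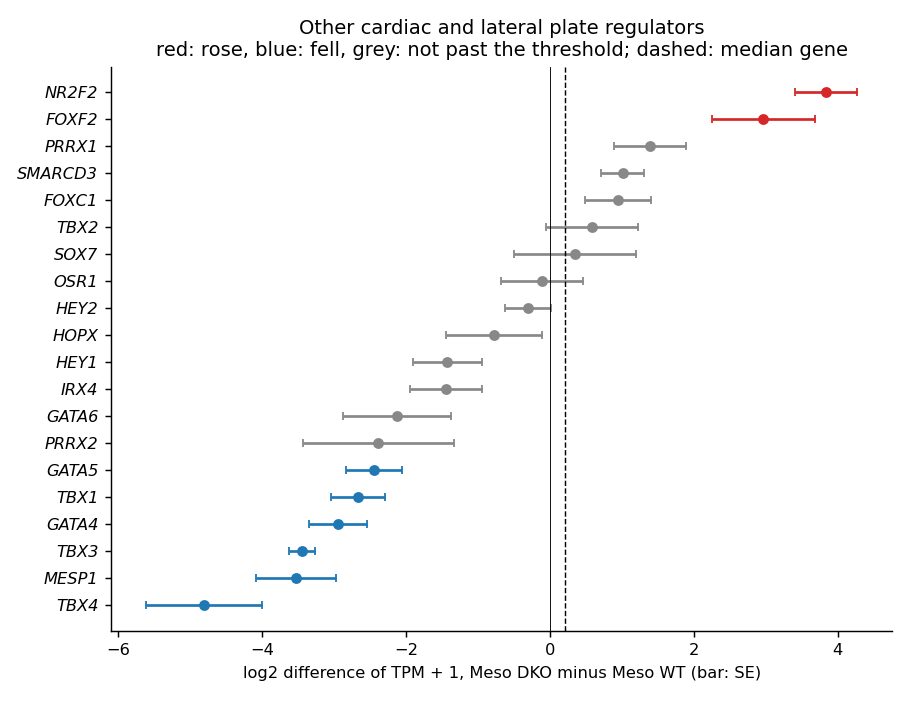
Log2 difference of TPM + 1 between Meso DKO and Meso WT (x axis, bars are SE, n = 2 against 2) for the 20 tested regulators of lateral plate and heart other than the members (y axis). The 6 blue genes fell, the 2 red genes rose and the dashed line is the median gene at 0.21.

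Genes of pathways that induce lateral plate mesoderm were not lower as a group. Of 20 tested genes of the BMP, WNT, FGF and hedgehog pathways, 3 rose and 2 fell (median 0.53), where 10.1% of all genes were called and 3.70% fell. BMP4, the ligand that patterns the lateral plate, was at 290 and 234 TPM in Meso DKO and 313 and 278 in WT (-0.18 ± 0.16, limma adjusted p = 0.528), and the BMP targets ID1, ID2 and ID3 did not pass the threshold. WNT5A fell (117 and 121 TPM against 269 and 326; adjusted p = 0.0175), as did BMP7 (adjusted p = 0.0201), and FGF8, HHIP and BMP2 rose. Without any 1 of the 4 libraries 0 to 2 of these rose and 0 fell, and FGF8 was not called with median centring. Of 7 contractile genes and 8 matrix genes tested, limma called 0 and 0 (1 and 4 at an unadjusted p under 0.05), and with median centring the matrix genes HAS2 and HMMR were called as lower.

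Of 11 early mesoderm genes 1 rose and 2 fell in Meso DKO, where 10.1% of all genes were called, and the 3 were called in each alternative run. Their summed level was 3600 to 3980 TPM in Meso DKO and 3500 to 3730 in WT. TBXT was at 567 and 521 TPM in DKO and MIXL1 at 2040 and 2320, and neither passed the threshold (adjusted p = 0.607 and 0.237). GSC, the goosecoid gene, fell from 12 and 16.7 TPM to a listed 0 (adjusted p = 0.00298). KDR, a receptor of cardiac and blood vessel progenitors, fell from 96.9 and 89.9 to 1.37 and 3.75 TPM (-4.81 ± 0.43, adjusted p = 0.00128), and APLNR, the apelin receptor, rose from 278 and 242 to 889 and 991 TPM (1.85 ± 0.17, adjusted p = 0.00128).

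Summed levels of markers of other cell types differed between Meso DKO and WT, where 10.1% of all genes were called and 3.70% fell. The summed level of 8 neural ectoderm markers was 477 to 479 TPM in Meso DKO and 55.4 to 57.5 in WT, mostly ZIC1 (416 and 430 TPM), with PAX6 and SIX3 listed at 0 in DKO. Of 5 tested, ZIC1 and SOX1 rose, SOX1 not with median centring or when a library was left out. The 9 neural crest markers summed to 157 to 159 TPM against 29.1 to 39.2 (5 of 7 tested rose, 3 with median centring and 0 to 2 when a library was left out), with FOXD3 and SOX10 listed at 0 in both genotypes. The amnion and trophoblast list, whose cells can also make HAND1, summed to 245 to 253 TPM in DKO and 468 to 493 in WT for the 9 of its 12 genes in the table, mostly CDX2, and VTCN1 and KRT7 were listed at 0 in both. Of 6 tested, CDX2 and GATA3 fell, and 0 were called in 3 of the 4 fits that leave out a library. Paraxial and intermediate mesoderm markers summed to 528 to 530 TPM against 663 to 732. Of 7 tested, DLL3 fell (-0.66 ± 0.13, limma adjusted p = 0.0227), a call that depends on single libraries. PAX8 was above WT by 3.50 in DKO, 0.45 in XKO and 0.00 in YKO on the log2 scale. It passed the filter on low values only through DKO, so its difference is given with no test. The 8 pluripotency genes summed to 955 to 974 TPM against 1370 to 1390. Of 6 tested, SOX2 rose (3.75 ± 0.51, limma adjusted p = 0.00499) and LIN28A, POU5F1 and ZFP42 fell. The calls of LIN28A and POU5F1 depend on single libraries. ZFP42 was already lower in undifferentiated DKO (-7.32 ± 0.28, edgeR adjusted p = 2.88e-15). The part of these cell types in the falls of the members was not tested.

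The effect of the double knockout on several members differed between layers. The difference between 2 within-layer differences was fitted with limma over the 24 layer libraries, a fit chosen after seeing the data. Between Meso and Endo the effect differed for HAPLN1 (-7.41 ± 0.54, adjusted p = 6.23e-07), MYH6 (-4.55 ± 0.47, 1.69e-05), FOXF1 (-3.28 ± 0.50, 0.00053) and ISL1 (-5.63 ± 1.70, 0.0477). Between Meso and Ecto it differed for HAPLN1 (-5.47 ± 0.54, adjusted p = 1.24e-05), MYH6 (-4.55 ± 0.47, 1.65e-05) and FOXF1 (-3.28 ± 0.50, 0.000441). ISL1 did not pass between Meso and Ecto (-2.83 ± 1.70, adjusted p = 0.351). In Ecto, ISL1 was listed at 0 in the first column of each genotype and above 0 in the second, a split that enters this SE. HAND1 did not pass in either (-1.70 ± 0.90 in both, adjusted p = 0.271 and 0.274). HAND1, MYH6 and FOXF1 are at 0 in Endo and Ecto DKO and WT, so for these genes the difference restates the fall in Meso. For HAND1 that is the same -1.70 with a larger SE in this fit.

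HAPLN1 was above 0 in both WT libraries of all 3 layers, and the direction of its DKO difference depended on the layer. In Endo it was at 17.8 and 23 TPM in DKO, 3.48 and 1.6 in WT, 5.47 and 5.98 in XKO and 0 and 1.53 in YKO. Both DKO libraries lay above the other 6, and HAPLN1 rose by 2.64 ± 0.57 over WT (limma adjusted p = 0.0233) and by 3.74 ± 0.57 over YKO (0.00706; 11.1% of genes called), the latter lost without the second DKO library (0.0572). In Ecto it was at 23.3 and 21 TPM in DKO, 10.5 and 16.7 in WT, 16.8 and 13.2 in XKO and 3.02 and 4.07 in YKO. The Ecto difference of 0.70 ± 0.36 from WT did not pass (adjusted p = 0.299), and that of 2.36 ± 0.36 from YKO did (0.0112), except without either DKO library (0.0763 and 0.07). Between Endo and Ecto the DKO effect also differed (1.94, adjusted p = 0.0464).

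**Figure D3:**
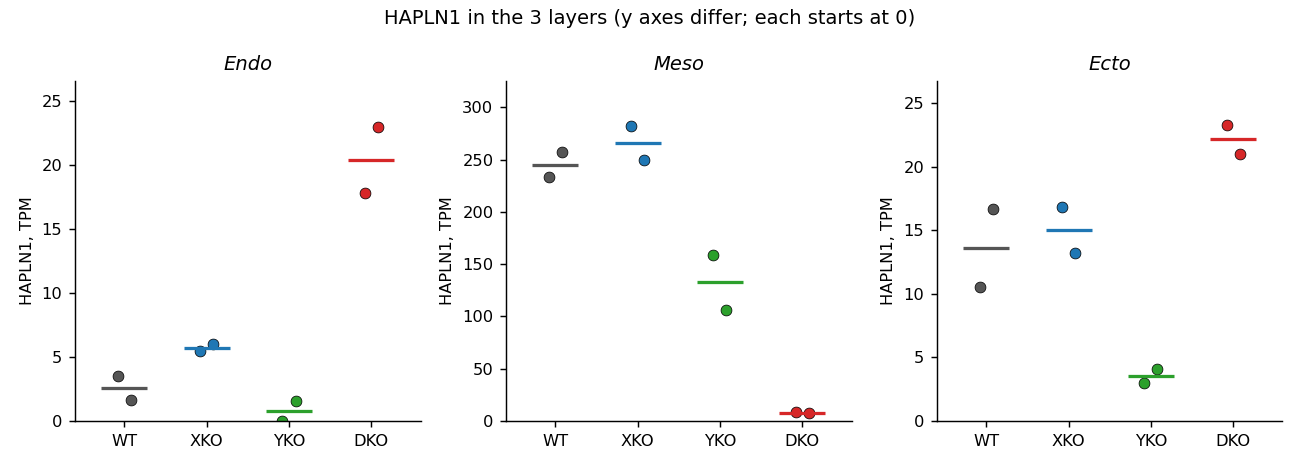
HAPLN1 in TPM (y axes from 0, on different scales) by genotype (x axis) in the Endo, Meso and Ecto cultures; points are the 2 libraries of a group and lines their means. DKO is the highest genotype in Endo (17.8 and 23) and Ecto (23.3 and 21) and the lowest in Meso (8.39 and 7.67).

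In the endoderm cultures 2 of 5 tested members rose in DKO against WT, where 7.01% of 15660 genes rose and 12.1% were called. Beside HAPLN1 this was ISL1 (chr5:51383391-51394738, plus strand), at 14.5 and 24.4 TPM in DKO, 0 and 1.76 in WT, 2.41 and 8.22 in XKO and 12 and 10.1 in YKO. The order of these levels was WT, XKO, YKO and DKO, with WT below the other 6 libraries and DKO above them. XKO and YKO did not pass against DKO (adjusted p = 0.13 and 0.54). The rise of DKO over WT was 3.58 ± 0.67 (limma adjusted p = 0.0133). Both calls depend on single libraries: that of HAPLN1 was lost without any 1 of the 4 libraries compared (adjusted p of 0.0579 to 0.14) and with a pseudocount of 0.1 (0.178), and that of ISL1 without the second DKO library (0.0843) or the first WT library (0.0695).

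ISL1 is also a gene of motor neurons. In Endo DKO the motor neuron gene OLIG2 was at 5.35 and 10.6 TPM, and it was listed at 0 in WT. It passed the filter on low values only through DKO, so its difference is given with no test. The other motor neuron genes tested, LHX4, MNX1 and NKX6-1, did not pass (limma adjusted p = 0.188, 0.475 and 0.386). The 4 of 8 motor neuron genes in the table summed to 19.4 to 25.3 TPM in DKO against 5.12 to 7.58 in WT. The 9 neural crest markers summed to 237 to 270 TPM against 65.6 to 77.9. Of 8 tested 3 rose (PAX7, SOX9 and TFAP2B), where 7.01% of all genes rose and 12.1% were called. SOX10 fell (0 and 1.2 TPM against 10.6 and 13.3, limma adjusted p = 0.0117), while FOXD3 was at 52.3 and 17.3 TPM against 58.9 and 48.2. The 9 endoderm markers summed to 8480 to 9210 TPM against 31000 to 31200. Their part in the rise of ISL1 was not tested. TBX5 in Endo was at 0 and 6.64 TPM in DKO and 6.47 and 3.34 in WT, and TBX20 at 6.37 and 8.07 against 7.86 and 5.41. Neither passed, and nor did NKX2-5. In Endo XKO and YKO, limma called 0 of 5 members each (1 each at an unadjusted p under 0.05, ISL1), where 0.0319% and 0.0255% of genes were called. Limma called 0 of 5 in Endo DKO against XKO too (3 at an unadjusted p under 0.05), where 10.9% of genes were called.

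In the ectoderm cultures limma called 0 of 5 tested members in DKO against WT (0 at an unadjusted p under 0.05), where 8.03% of 15433 genes were called. It called 0 of 5 in XKO (1 at an unadjusted p under 0.05, FOXF1), where 0.356% of genes were called. In YKO it called 0 of 5 (2 at an unadjusted p under 0.05, HAPLN1 and NKX2-5), where 0.0842% were. FOXF1 was at 1.29 and 1.45 TPM in Ecto XKO and listed at 0 in the other 6 libraries. It passed the filter on low values only through XKO, so its p is not read as a change. NKX2-5 (chr5:173232109-173235357, minus strand) was at 6.86 and 3.08 TPM in Ecto YKO and listed at 0 in the other 6 libraries. It passed the filter on low values only through those YKO libraries, so its difference between DKO and YKO is given with no test. In that comparison 5.10% of genes were called. Against XKO limma called 0 of 5 members in DKO (1 at an unadjusted p under 0.05, again FOXF1), where 4.96% of genes were called. NKX2-5 was at its highest in the YKO group of both Meso and Ecto.

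In undifferentiated SEES3 cells only TBX5 and HAPLN1 had enough counts for a test. HAND2 and TBX20 had 0 counts in all 10 libraries, which allows up to 0.124 to 0.226 CPM (counts per 1000000 counts) per group, taking 3 counts over its libraries and counting error only. HAND1 had 1 count in all, and FOXF1, ISL1 and MYH6 at most 4 in any library. NKX2-5 had 1 to 10 counts per library.

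TBX5 (chr12:114353931-114408442, minus strand) was lower in each knockout than in its own wild type. It had 87 and 130 counts in WT (12.9 and 11.9 CPM), 21 and 23 in UTXKO (3.01 and 3.65 CPM) and 48 and 42 in DKO (5.33 and 5.33 CPM). In the separate UTYKO table it had 59 and 81 counts in the control (6.34 and 5.41 CPM) and 3 and 8 in UTYKO (0.519 and 0.671 CPM). The fall was -1.89 ± 0.24 in UTXKO (edgeR adjusted p = 2.15e-06; 6.31% of genes fell and 12.5% were called), -3.21 ± 0.39 in UTYKO (9.51e-05; 0.511% fell and 0.606% were called) and -1.26 ± 0.18 in DKO (7.59e-06; 46.9% called). No knockout library overlapped with its wild type.

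The order of TBX5 among the knockouts was not that of the number of paralogs lost. DKO was above UTXKO by 0.65 ± 0.26, which did not pass (edgeR adjusted p = 0.0567). The 2 wild types differed as well: the UTYKO control was below WT by 1.06 on the log2 scale (-1.06 ± 0.25, edgeR adjusted p = 0.00124), a call lost without either WT library (0.129 and 0.103). The calls of TBX5 in the 3 knockouts held under each alternative that gave an adjusted p. DESeq2 gave none for UTXKO, where its unadjusted p was 2.13e-06.

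TBX5-AS1, a noncoding RNA that starts beside TBX5 and runs the other way, overlaps it (chr12:114408191-114412831, plus strand). It was at 12.6 and 14.2 CPM in WT, 3.44 and 5.39 in UTXKO and 4.33 and 5.46 in DKO, and at 6.23 and 5.94 in the UTYKO control against 2.08 and 2.1 in UTYKO. It fell by 1.62, 1.52 and 1.54 in UTXKO, DKO and UTYKO (edgeR adjusted p = 1.29e-05, 9.91e-07 and 0.0165). The kit marks strand, but the counting setting is not given in the sources used here, so reads of the shared stretch may not be told apart.

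HAPLN1 went in opposite directions in UTXKO and DKO. It had 109 and 178 counts in WT (16.2 and 16.4 CPM), 70 and 61 in UTXKO (10 and 9.68 CPM) and 359 and 332 in DKO (39.9 and 42.2 CPM). The UTXKO libraries lay below WT (-0.72 ± 0.17, edgeR adjusted p = 0.00527) and the DKO libraries above it (1.28 ± 0.11, 2.68e-09), and DKO exceeded UTXKO by 2.02 ± 0.13 (3.33e-12; 34.9% of genes called). DESeq2 did not call the fall in UTXKO (adjusted p = 0.156).

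In UTYKO, HAPLN1 had 63 and 119 counts (10.9 and 9.98 CPM) against 109 and 89 in its control (11.7 and 5.94 CPM). Those control libraries lie on both sides of UTYKO, and the difference did not pass (0.27 ± 0.28, edgeR adjusted p = 1), although it did without the first control library (0.79, 0.0243). The control was below WT (-0.90 ± 0.24, adjusted p = 0.00509; 11.5% of genes called), a call lost without either WT library (0.2 and 0.28), without the second control library (0.0535) and with DESeq2 (0.116). The neighbour EDIL3, 218941 bases from HAPLN1, fell in DKO (-1.52 ± 0.09, adjusted p = 8.35e-12), and VCAN did not change beyond its error (-0.00 ± 0.06, 0.984).

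**Figure D4:**
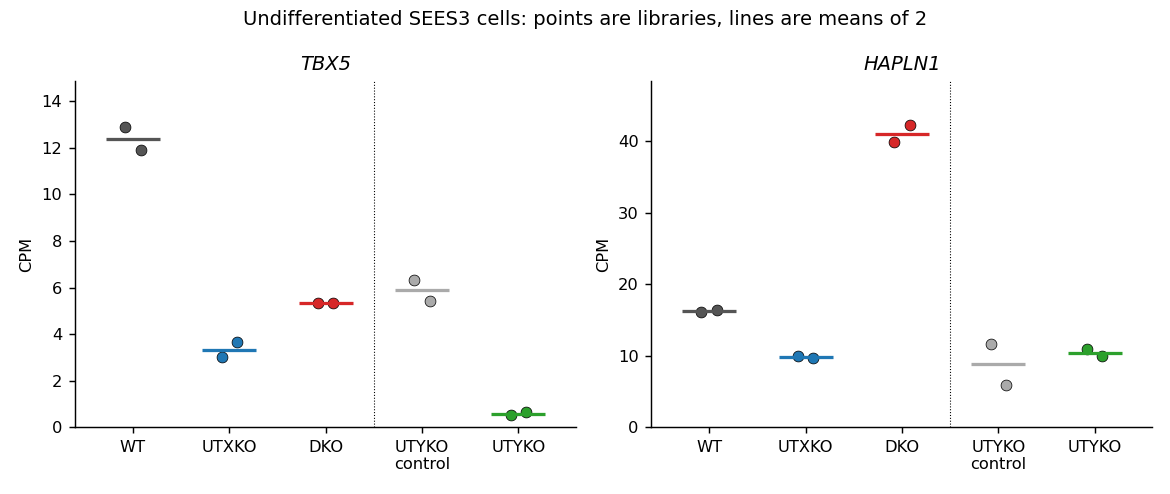
TBX5 and HAPLN1 in CPM (y axes from 0) in the 10 undifferentiated SEES3 libraries by group (x axis); points are libraries, lines the means of 2, and the dotted line parts the groups with separate wild types. TBX5 is lower in each knockout than in its own wild type, while HAPLN1 is highest in DKO (39.9 and 42.2) and below WT in UTXKO (10 and 9.68).

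In undifferentiated DKO cells the wider regulator list went both ways. Of 26 genes 14 were tested, 5 rose and 4 fell, where 46.9% of all genes were called (median 0.20, against 0.00 over all genes). NR2F2 and FOXF2, the regulators that rose in Meso DKO, were already higher: NR2F2 had 90 and 85 counts in DKO and 1 and 0 in WT, and FOXF2 26 and 25 against 0 and 1 (edgeR adjusted p = 1.22e-10 and 1.49e-06).

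In H9 cells HAPLN1 alone was high enough for a test. It was at 1.24 and 0.486 TPM in WT, 5.62 and 4.78 in UTXKO set 3 and 1.03 and 2.39 in set 4. Set 3 lay above WT and set 4 overlapped with it, and the difference over both sets was 1.14 ± 0.57 (limma adjusted p = 0.31; 4.58% of genes called). With set 3 alone it was 1.76 ± 0.44 (adjusted p = 0.17) and with set 4 alone 0.53 ± 0.53 (0.658). FOXF1, TBX5, NKX2-5 and ISL1 were at 0.0533 TPM or less in every H9 library, except that ISL1 was at 1.05 TPM in 1 library of set 3. The smallest value of the H9 table is 0.0112 TPM, near these levels.

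**Figure D5:**
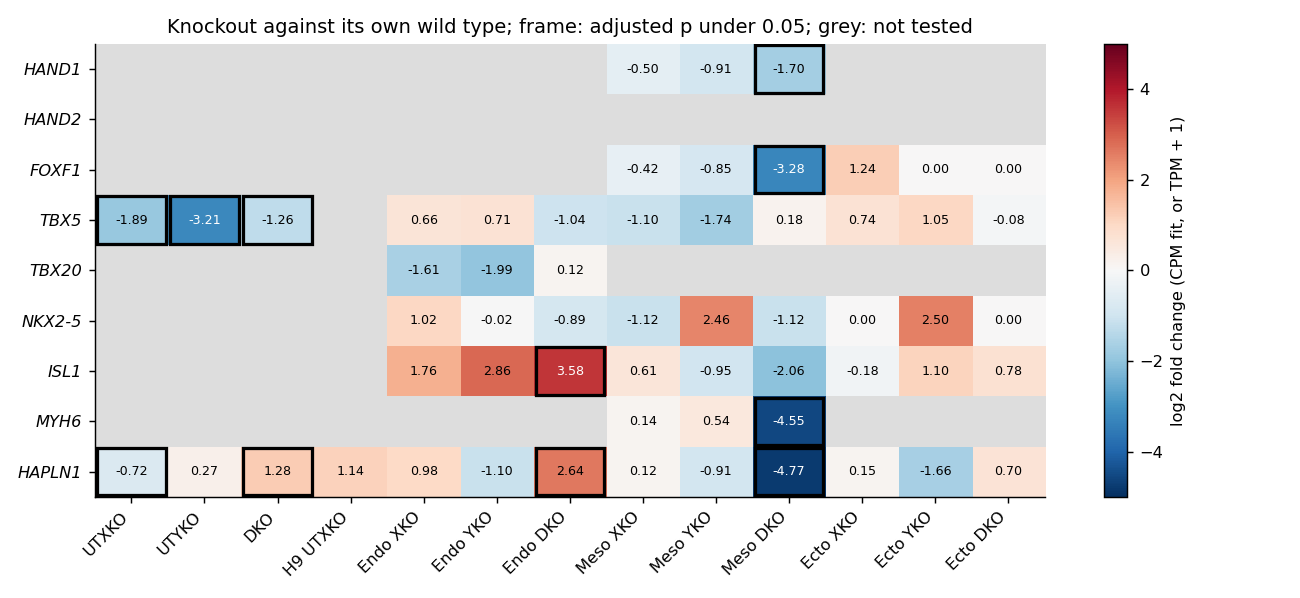
Log2 fold changes of the 9 members (y axis) in each knockout against its own wild type (x axis), from edgeR for the undifferentiated SEES3 counts and from limma on log2(TPM + 1) for the rest; frames mark an adjusted p under 0.05 and grey a gene not tested. The frames lie on TBX5 and HAPLN1 in undifferentiated cells, ISL1 and HAPLN1 in Endo DKO, and HAND1, FOXF1, MYH6 and HAPLN1 in Meso DKO.

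Across the 24 layer libraries HAND1 and FOXF1 had like patterns (Pearson r of log2(TPM + 1) 0.964), as had FOXF1 and MYH6 (0.918) and MYH6 and HAPLN1 (0.866). HAND1 and TBX5 did not (-0.265), nor MYH6 and ISL1 (0.029). The genes most like each member were HOXB6, DEFA5 and HOXC8 for HAND1 (0.983 each), HOXC6 and HOXA5 for FOXF1 (0.991 and 0.988), RPH3AL-AS1, GRAP2 and CPHXL for MYH6 (0.987, 0.986 and 0.982), and DDAH1, NPY and PMP22 for HAPLN1 (0.919, 0.890 and 0.878). For TBX5 they were DNAJC3, CTTN and WDR1 (0.824 to 0.809), for TBX20 ADAMTS18 and APOL3 (0.938 and 0.930), and for NKX2-5 and ISL1 no gene exceeded 0.679 and 0.748. The libraries share 3 layers and 4 genotypes, so these values describe which genes are high in the same cultures.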

How the data were processed

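For undifferentiated SEES3 cells (10 libraries) the authors deposited raw whole-number gene counts. For the germ layer and H9 libraries the authors deposited TPM; the submitters' processing notes name STAR, RSEM, featureCounts and edgeR and the builds GRCh38 and hg38, with no versions. Symbols matched 99.7%, 99.8% and 99.7% of identifiers in the count, layer and H9 tables, and 12 columns of the H9 table were not used. The quasi-likelihood test of edgeR 4.0.16 (filterByExpr, TMM) was used on counts and limma 3.58.1 (trend, log2(TPM + 1), TPM of at least 1 in 2 libraries) on TPM, in R 4.3.3, adjusted by Benjamini-Hochberg over all genes tested. CPM are counts over the library total. DESeq2 1.42.0, other size factors, filters and pseudocounts and leaving out libraries were tried. The steps were tested on simulated data. For DKO against WT, 29% (Meso), 44% (Endo) and 50% (Ecto) of 2-fold changes were recovered. For 4-fold changes it was 89%, 94% and 96%. Replicates were not duplicates (chi-square per degree of freedom 1.62 to 3.68 in the count groups other than the UTYKO control). In the UTYKO control it was 14.99, so the libraries that UTYKO is compared with were the least alike. Positions are GENCODE v29, GRCh38. Members and gene lists were chosen with earlier results of these data known. All 9 members were named in each comparison, with up to 4 called genes of a list, or 2 at the highest level where none was called. The text gives a selection of the lists, and genes named beyond this were chosen after their values were seen. Some list genes are not reported here and were left out of the lists' counts and sums.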

Additional observations from a re-analysis of the deposited data

Results flagged for a closer look

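The effect of the double knockout differed for HAPLN1 between each pair of layers and for ISL1 only between Meso and Endo. This was a test of the difference itself (limma over 24 libraries, a fit chosen after seeing the data). ISL1 did not pass between Meso and Ecto (adjusted p = 0.351) or Endo and Ecto (0.447). MYH6 and FOXF1 also passed, but both are listed at 0 in DKO and WT of Endo and Ecto, so their values restate the falls in Meso. Between Meso and Endo the difference in effect was -7.41 for HAPLN1 (adjusted p = 6.23e-07), -4.55 for MYH6 (1.69e-05), -3.28 for FOXF1 (0.00053) and -5.63 for ISL1 (0.0477). Between Meso and Ecto it was -5.47 for HAPLN1 (adjusted p = 1.24e-05), -4.55 for MYH6 (1.65e-05) and -3.28 for FOXF1 (0.000441), and between Endo and Ecto 1.94 for HAPLN1 (0.0464). Both DKO libraries of undifferentiated cells lay above WT for HAPLN1, and both Meso DKO libraries below it (-4.77). That contrast between undifferentiated cells and Meso was not tested, since the tables differ in unit. Of the 20 groups none has more than 2 libraries, so no library could be tested as an outlier of its group.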

How the results depend on the processing

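The 4 calls in Meso DKO against WT held in the 7 alternatives run. No called member changed sign in the alternatives of any comparison, and of the alternatives 133 counts of called members kept within 1.5 times the main count and 23 did not. The count moved from 2 to 0 with DESeq2 for UTXKO, where TBX5 had no adjusted p, and from 2 to 1 with DESeq2 for the UTYKO control against WT. It moved from 1 to 2 with no low-count filter for DKO against UTXKO (NKX2-5 added), and from 2 to 1 with a pseudocount of 0.1 in Endo DKO against WT. The count for Ecto DKO against YKO moved too, but it takes in NKX2-5, which passed the filter on low values only through YKO. Leaving out 1 library gave 1 to 2 called members for UTYKO, 1 to 2 for DKO against UTXKO, 0 to 2 for the UTYKO control against WT, 0 to 1 for Endo DKO against WT, 0 to 1 for Endo DKO against XKO, 0 to 3 for Meso YKO, 3 to 4 for Meso DKO against XKO, 3 to 6 for Meso DKO against YKO and 0 to 1 for Ecto DKO against YKO. The cause was not tested. The counts for Meso DKO and Ecto DKO against YKO include NKX2-5, whose difference is given with no test in both. Where 1 library of a group was left, it was assumed to vary like the other groups. With replicate number as a block, no call of a member in the count tables changed (TBX5 in UTXKO -1.89, adjusted p = 3.43e-11), and the deviations of libraries with 1 number correlated at -0.00 to 0.20, so the numbers were not taken to pair them. No paired analysis was run for the TPM tables because their columns carry no replicate number, so the planned fits with a block were left out. In Ecto, ISL1 was listed at 0 in the first column of each genotype. In the second column it was at 9.65 (DKO), 2.62 (WT), 1.82 (XKO) and 15.7 TPM (YKO). Whether the Ecto columns pair in this order was not tested. In undifferentiated cells 7 members had too few counts for a test, and whether more depth would change that was not tested.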
